A study of Mus musculus with 6 samples.

Results

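The colony-stimulating factor (CSF) ligands and receptors measured in hippocampus were taken by gene symbol. They were the ligand genes Csf1 and Il34 and the receptor genes Csf1r, Csf2ra, Csf2rb and Csf3r, 6 of the 15388 genes in the table, and all 6 were tested. RNA came from Cx3cr1-cre/ERT2+; NuTRAP+ mice, which carried a tamoxifen-inducible Cre recombinase at Cx3cr1 and a Cre-dependent NuTRAP reporter, each on a single allele. Per the methods of the study, male and female mice received tamoxifen for 5 days at about 3 months of age, and the sex of each animal was not taken from the labels. In translating ribosome affinity purification (TRAP), Input was cleared hippocampal homogenate saved before the pull-down, and Positive was RNA on EGFP-tagged ribosomes bound by an anti-GFP antibody. Animals 201, 207 and 208 each gave 1 Input and 1 Positive library. Both fractions thus share genotype, tamoxifen treatment, age and animal. Recombination follows Cx3cr1, which microglia express and which other macrophages and monocytes can express as well. For this mouse line the study reports a delay of weeks between tamoxifen and brain collection. The delay was meant to avoid label in circulating monocytes, which are short-lived.

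CSF1 and IL-34 are separate cytokines that bind the same receptor tyrosine kinase, CSF1R, on which microglia depend for their survival. In the brain, IL-34 is known mainly from neurons and CSF1 from several kinds of glia. GM-CSF signals through a ligand-specific alpha chain encoded by Csf2ra and a common beta chain encoded by Csf2rb, which the IL-3 and IL-5 receptors use too. Csf3r encodes the receptor for G-CSF, best known from neutrophils and their precursors.

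The libraries held 14879734 to 17757918 reads. Values are given as scaled reads, which are the deposited read counts divided by a size factor per library. All 8 microglia markers rose in Positive, and their summed level was 3097 to 3283 scaled reads in Input and 58349 to 86122 in Positive. All 8 border macrophage markers rose as well, from sums of 201 to 256 to sums of 2685 to 5834. Among them, Pf4, Clec12a, Lyve1 and Ms4a7 passed the filter on low values only through Positive, which favoured their rise. The border macrophage medians given below include these genes. Of 8 monocyte markers, 3 were tested, of which 2 rose and 1 fell. Of the 2 that rose, Ly6c2 was low, averaging 7.26 scaled reads in Input against 22.5 in Positive. Ly6c2 also passed the filter on low values only through Positive, which favoured its rise. The marker that fell was Vcan, also on the list for oligodendrocyte precursors. Of the 8 markers of these precursors, which include Pdgfra, 7 fell, with a median log2 fold change of -1.53 and sums of 2634 to 2765 in Input and 728 to 1111 in Positive. The 8 endothelial markers rose, with sums of 1710 to 2114 in Input and 4669 to 9431 in Positive. All 8 oligodendrocyte markers fell, with a median log2 fold change of -2.58. Of 10 neuron markers, 3 rose and 0 fell, with a median of 0.10. Their sums were 158103 to 179928 in Input and 173729 to 210732 in Positive, above those of the microglia markers in both fractions. Of 8 astrocyte markers, 0 rose and 3 fell, with a median of -0.33. No marker tested was at 0 in any library. The Positive library of animal 208 stood apart, with a median log2 Positive over Input of 1.17 for endothelial markers, against 2.19 and 2.23 in animals 201 and 207. The part of these other cell types in the results below was not tested. Both fractions of an animal came from the same homogenate. A fold change here thus compares the pull-down with that homogenate, not numbers of cells or RNA per cell. Between animals, fewer cells of a type and less RNA per cell cannot be told apart in such bulk libraries.

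Of the 4 receptor genes 3 rose in Positive, and of the ligand genes none did. Csf1r, Csf2rb and Csf3r were 24.7-fold, 16.7-fold and 10.2-fold higher in Positive than in Input, Il34 was lower at 77.7% of Input, and Csf1 and Csf2ra did not pass the test. Thus 3 of the 6 genes rose and 1 fell, where 46.0% of the 15344 genes tested were called, 24.0% higher and 22.0% lower. The median log2 fold change was 1.80 over the 6 genes and -0.01 over all genes tested. Positive and Input did not overlap for 4 of the 6 genes, as for 56.5% of all genes tested (29.0% with Positive above and 27.6% with Positive below). Of the 6, 5 passed the filter on low values in both fractions, and Csf2rb passed only through Positive. Without the Positive library of animal 208, 4 genes rose and 1 fell, Csf2ra being the gene added.

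**Figure D1:**
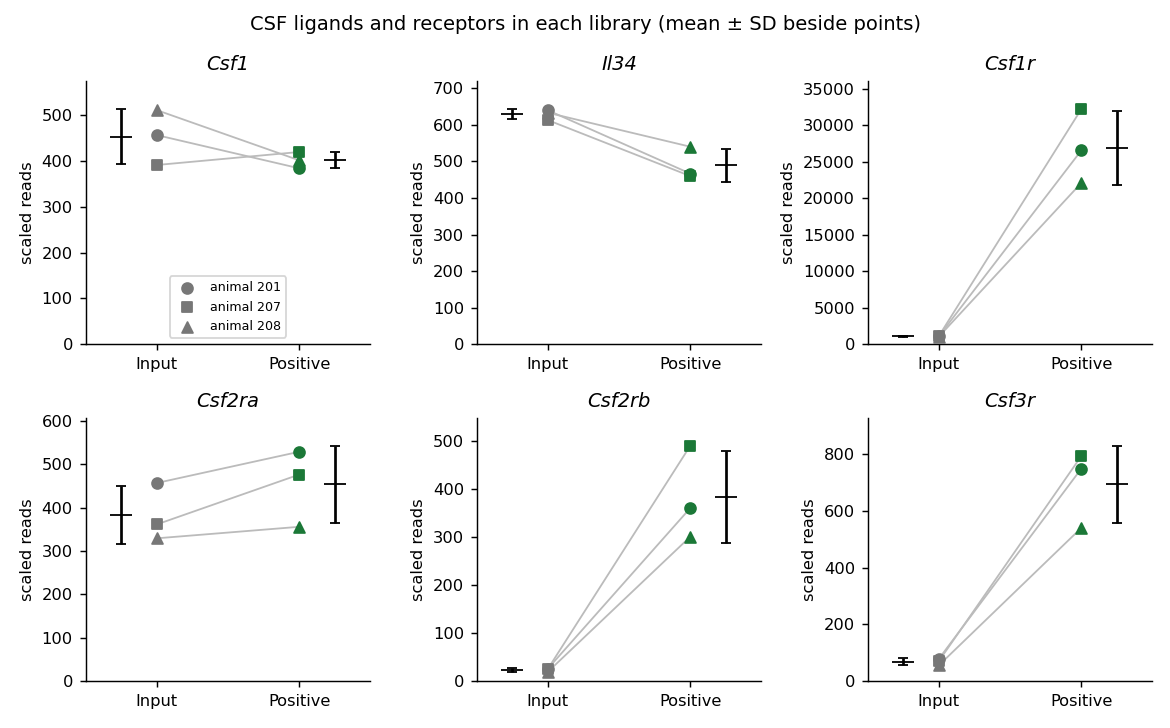
Scaled reads (vertical axes, from 0, a separate scale per gene) of the 6 CSF genes in Input (grey) and Positive (green). Symbols are animals, grey lines join the fractions of an animal, and bars beside the points are means with SD (n = 3). Csf1r, Csf2rb and Csf3r lie far higher in Positive in every animal, Il34 lies lower in every animal, and the fractions overlap for Csf1 and Csf2ra.

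Of the ligand genes, Il34 fell and Csf1 did not pass the test. Il34 (ENSMUSG00000031750, chr8:110741829-110805924, minus strand, mm10) had 640.0, 613 and 633 scaled reads in the Input libraries of animals 201, 207 and 208, and 467, 460.0 and 540.3 in the Positive libraries. Each Positive library was below each Input library. The means were 629 ± 13.99 (SD, n = 3) in Input and 489 ± 44.5 (SD, n = 3) in Positive, and the log2 fold change was -0.36 ± 0.10 (SE), at an adjusted p of 0.00928 by edgeR's quasi-likelihood test with Benjamini-Hochberg adjustment. The 95% interval of the fit ran from -0.58 to -0.15, that is, from 67.0% to 90.1% of Input. Annotated antisense transcripts overlap Il34, and strand was used in counting.

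Csf1 (ENSMUSG00000014599, chr3:107741048-107760469, minus strand) encodes the secreted and membrane-bound cytokine CSF1, also called M-CSF. It had 456, 391 and 511 scaled reads in Input and 384, 419 and 401 in Positive, in the same order of animals. The fractions overlapped, and Csf1 was higher in Positive in animal 207 only. The means were 453 ± 59.999 and 402 ± 17.8 (SD, n = 3), and the log2 fold change of -0.17 ± 0.12 (SE) did not pass the edgeR test (adjusted p = 0.257). Its 95% interval ran from -0.43 to 0.09. Per animal, the log2 Positive over Input of Csf1 exceeded that of Il34 by 0.21 and 0.51 in animals 201 and 207 and was below it in animal 208 (-0.12).

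Csf1r (ENSMUSG00000024621, chr18:61105572-61132149, plus strand) encodes the receptor for both ligands. It had 1107, 1123 and 1043 scaled reads in Input and 26560.5, 32217 and 22105 in Positive. The lowest Positive library lay far above the highest Input library. The means were 1091 ± 42.7 and 26961 ± 5068 (SD, n = 3), and the log2 fold change was 4.63 ± 0.14 (SE), with a 95% interval of 4.32 to 4.93 and an adjusted p of 1.9e-10 (edgeR). By reads, Csf1r was gene number 25 in Positive and number 3579 in Input. By log2 fold change it was number 74 of 15344, and 0.476% of the genes tested had a larger one. Its exons overlap those of Hmgxb3 on the opposite strand.

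The log2 Positive over Input of Csf1r was 4.58, 4.84 and 4.40 in animals 201, 207 and 208. The median of the 8 microglia markers was 4.57, 4.99 and 4.44 in the same animals. The difference between them was -0.06 ± 0.08 (SD, n = 3), so Csf1r moved about as far as the microglia markers did in each animal. The median of the border macrophage markers was 3.72, 4.49 and 3.55. Csf1r exceeded Csf1 by 4.83, 4.74 and 4.75 on this log2 scale, and exceeded Il34 by 5.04, 5.25 and 4.63.

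Promoters of a ligand gene, of a receptor gene that rose, of one that did not pass and of a copy of the beta chain are shown next, to be read side by side for the letters bound by PU.1, a transcription factor of the myeloid lineage. Windows run from 250 bases before to 50 bases after the RefSeq start (GRCm38.p6), 5′ to 3′ on the strand of the gene. Capitals mark the PU.1 core GAGGAA or its reverse complement TTCCTC. RefSeq windows for Csf1 (chr3:107760420-107760719, minus strand), Csf2ra (chr19:61228369-61228668, minus strand), Csf3r (chr4:126024409-126024708, plus strand) and Csf2rb2, a copy of Csf2rb (chr15:78305672-78305971, minus strand), read as follows.
Csf1: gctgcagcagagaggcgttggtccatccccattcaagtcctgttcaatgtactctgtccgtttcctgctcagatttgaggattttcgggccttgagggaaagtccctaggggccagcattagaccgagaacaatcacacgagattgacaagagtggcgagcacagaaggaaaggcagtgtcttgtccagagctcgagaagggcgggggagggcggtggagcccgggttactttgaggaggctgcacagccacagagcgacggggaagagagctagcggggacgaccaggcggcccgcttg
Csf2ra: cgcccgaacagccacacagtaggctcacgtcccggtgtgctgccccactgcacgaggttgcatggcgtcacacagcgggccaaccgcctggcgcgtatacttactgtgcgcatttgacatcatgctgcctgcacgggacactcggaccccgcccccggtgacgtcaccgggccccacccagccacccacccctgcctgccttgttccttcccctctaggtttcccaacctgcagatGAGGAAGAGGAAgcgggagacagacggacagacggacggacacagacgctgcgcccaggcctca
Csf3r: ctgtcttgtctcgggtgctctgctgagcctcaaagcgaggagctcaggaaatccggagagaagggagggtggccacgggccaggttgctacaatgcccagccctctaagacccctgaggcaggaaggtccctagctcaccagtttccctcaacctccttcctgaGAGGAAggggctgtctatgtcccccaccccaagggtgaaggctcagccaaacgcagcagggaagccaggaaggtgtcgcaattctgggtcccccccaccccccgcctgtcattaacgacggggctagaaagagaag
Csf2rb2: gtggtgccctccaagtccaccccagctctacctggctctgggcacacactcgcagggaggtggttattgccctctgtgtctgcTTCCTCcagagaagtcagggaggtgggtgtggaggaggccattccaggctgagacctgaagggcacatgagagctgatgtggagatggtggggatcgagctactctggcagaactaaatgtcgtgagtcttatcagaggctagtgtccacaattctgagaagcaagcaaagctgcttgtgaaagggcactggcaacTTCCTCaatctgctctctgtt

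The core was found once in the Csf3r window, at position -86 from the start. In the Csf2ra window it stood at -14 and -8, directly in tandem, and in the Csf2rb2 window on the minus strand at -167 and 30. The Csf1 window held none, nor did that of Il3ra, the IL-3 receptor alpha chain described below. Windows of Csf1r, Csf2rb and Il34 were not analysed here. Of 32851 RefSeq promoter windows of this length, 28.3% held the core on either strand. None of these 5 windows held the RUNX core TGTGGT or the AP-1 letters TGANTCA on either strand, which 16.8% and 7.81% of all windows held. The match is a description of letters only, and Csf2ra, whose fractions overlapped, carried it as Csf3r and Csf2rb2 did.

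The chains of the GM-CSF receptor differed from each other. Csf2ra (ENSMUSG00000059326, chr19:61224402-61228418, minus strand), the alpha chain, had 457, 361 and 329 scaled reads in Input and 529, 476 and 356 in Positive. The fractions overlapped, although each animal was higher in Positive, with log2 ratios of 0.21, 0.40 and 0.11. The means were 383 ± 66.4 and 454 ± 88.8 (SD, n = 3). The log2 fold change was 0.25 ± 0.16 (SE), with a 95% interval of -0.10 to 0.59 and an adjusted p of 0.224 (edgeR). Without the Positive library of animal 208 it was 0.39 with an adjusted p of 0.0293, so that 1 library decided the call.

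Csf2rb (ENSMUSG00000071713, chr15:78325990-78351000, plus strand), the common beta chain, was near the limit of the filter in Input, with 25.4, 24.8 and 18.8 scaled reads. In Positive it had 361, 491 and 301. The fractions did not overlap. The means were 23.0 ± 3.65 and 384 ± 97.0 (SD, n = 3), and the log2 fold change was 4.06 ± 0.23 (SE), with a 95% interval of 3.56 to 4.56 and an adjusted p of 1.7e-08 (edgeR). The log2 Positive over Input of Csf2rb exceeded that of Csf2ra by 3.56, 3.85 and 3.82 in the 3 animals. Against the microglia marker median, Csf2rb differed by -0.68 ± 0.15 per animal (log2, SD, n = 3). The log2 Positive over Input of Csf2rb was 3.78, 4.25 and 3.93 in animals 201, 207 and 208. The border macrophage marker median was close to it, at 3.72, 4.49 and 3.55. Which cells carried Csf2rb was not tested.

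Mice also carry Csf2rb2 (ENSMUSG00000071714, chr15:78282517-78305603, minus strand), a beta chain that serves IL-3 alone. Its longest coding transcript was 91.4% identical to that of Csf2rb over 4623 aligned columns, and 22.1% of the 42-base windows of the Csf2rb transcript occurred in transcripts of other genes, 1055 of 1073 such windows in Csf2rb2. How reads split between the copies is therefore uncertain. Csf2rb2 had 58.0, 47.9 and 69.0 scaled reads in Input and 229, 282 and 190 in Positive, without overlap, and differed by 2.01 ± 0.20 (SE) in log2 fold change, at an adjusted p of 4.4e-06 (edgeR). In log2 Positive over Input, Csf2rb exceeded Csf2rb2 by 1.81, 1.72 and 2.48. With the reads of both copies summed, the log2 fold change was 2.93 with an adjusted p of 3.2e-08 (edgeR).

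Il3ra, the alpha chain of the IL-3 receptor (chr14:14346275-14356011, plus strand), had 22.8, 60.8 and 36.3 scaled reads in Input and 45.0, 142 and 67.3 in Positive. The fractions overlapped, and each animal was higher in Positive. The fit gave a log2 difference of 1.08 ± 0.42 (SE), at an adjusted p of 0.0492 (edgeR), and 0.002 with the animal as a block. The call was lost under total count scaling (adjusted p = 0.0641), with limma (0.121), and without the Input library of animal 201 (0.181), the Input library of animal 208 (0.123) or the Positive library of animal 207, where the log2 fold change was 0.48 (0.338). The genes for GM-CSF (Csf2), G-CSF (Csf3), IL-3, IL-5 and the IL-5 receptor alpha chain were not analysed here.

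Csf3r (ENSMUSG00000028859, chr4:126024550-126044440, plus strand), the G-CSF receptor, had 78.0, 70.0 and 55.0 scaled reads in Input and 748, 793 and 539.6 in Positive. The fractions did not overlap. The means were 67.7 ± 11.7 and 694 ± 135 (SD, n = 3), and the log2 fold change was 3.35 ± 0.18 (SE), with a 95% interval of 2.96 to 3.74 and an adjusted p of 9.5e-09 (edgeR). Its log2 Positive over Input was 3.25, 3.48 and 3.27 in the 3 animals, which differed from the microglia marker median by -1.33 ± 0.17 per animal (SD, n = 3) and was below Csf1r in every animal. The border macrophage marker median was 3.72, 4.49 and 3.55 in the same animals. Of 11 neutrophil markers, 2 were tested, with summed levels of 61.3 to 82.0 scaled reads in Input and 44.7 to 59.9 in Positive. Of these, Cxcr2 fell (46.5 to 17.4 scaled reads, log2 fold change -1.41, adjusted p = 0.00367 by edgeR) and Mmp9 did not pass the test, and the other 9 were not analysed here. Cxcr2 passed the filter on low values only through Input, where it is high, which favoured its fall and the lower sum in Positive. Whether neutrophils contributed to Csf3r was not tested. Of the 42-base windows of the Csf3r transcript, 16.2% occurred in transcripts of other genes, most of them in a pseudogene.

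**Figure D2:**
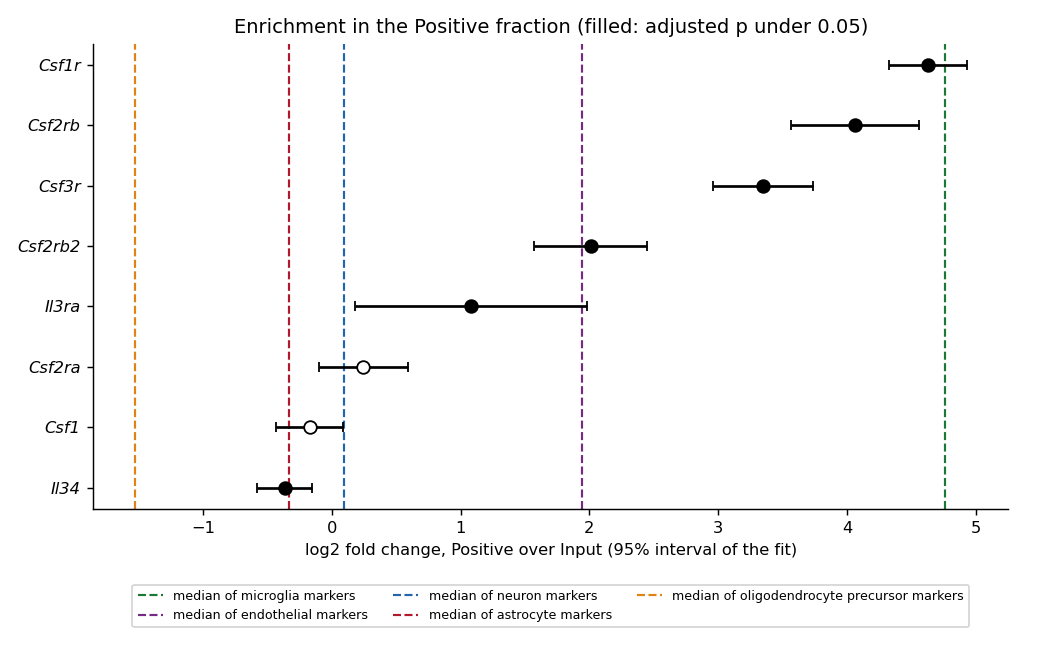
Log2 fold change of Positive over Input (horizontal axis) with the 95% interval of the edgeR fit for the 6 CSF genes, Csf2rb2 and Il3ra, from 3 libraries per fraction. Filled points have an adjusted p under 0.05, and dashed lines are the medians of the marker lists named in the key. Csf1r at 4.63 lies beside the microglia line at 4.76. Csf2ra at 0.25 lies near the neuron line at 0.10, and Csf1 at -0.17 lies between that line and the astrocyte line at -0.33. Il34 at -0.36 lies beside the astrocyte line, and its interval of -0.58 to -0.15 does not reach the neuron line.

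To compare genes with each other, scaled reads were divided by the length of the longest coding transcript. In Input, the levels in scaled reads per kilobase were 350.1 ± 7.79 for Il34, 232 ± 9.09 for Csf1r, 207 ± 35.9 for Csf2ra, 108 ± 14.4 for Csf1, 19.4 ± 3.35 for Csf3r and 4.70 ± 0.75 for Csf2rb (SD, n = 3 each). The ranges of Csf1r and Csf2ra overlapped, so their order is not beyond the spread. Il34 was the highest of the family in Input.

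In Positive, Csf1r came first with 5735 ± 1078 scaled reads per kilobase. Il34 (272 ± 24.8), Csf2ra (245 ± 48.0) and Csf3r (199 ± 38.9) followed, and each overlapped its neighbour. Csf1 (96.2 ± 4.26) and Csf2rb (78.4 ± 19.8) came last and overlapped too. With the length of all exons in place of the longest transcript, Csf2ra (158 scaled reads per kilobase) and Csf3r (192) changed places in Positive, and no other order among the 6 genes changed.

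The ratio of Csf1r to the summed level of its ligands per kilobase was 0.506, 0.549 and 0.467 in Input and 16.1, 19.2 and 11.8 in Positive, in animals 201, 207 and 208. The ratio of Il34 to Csf1 was 3.26, 3.65 and 2.88 in Input and 2.83, 2.55 and 3.13 in Positive, with overlap between the fractions. The alpha chain Csf2ra exceeded the beta chain Csf2rb per kilobase 47.7, 38.6 and 46.4 times in Input and 3.89, 2.57 and 3.13 times in Positive. Csf2rb was below its copy Csf2rb2 in Input, with ratios of 0.424, 0.501 and 0.264, and above it in Positive, with ratios of 1.52, 1.68 and 1.53. In Positive, how far Csf2rb lay above Csf2rb2 depends on the length used, though the order of the means did not change. With the length of all exons, the Positive levels were 52.8 ± 13.3 for Csf2rb and 49.3 ± 9.8 for Csf2rb2 (SD, n = 3). In Input they were 3.16 and 12.3. How reads split between the copies is also uncertain.

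**Figure D3:**
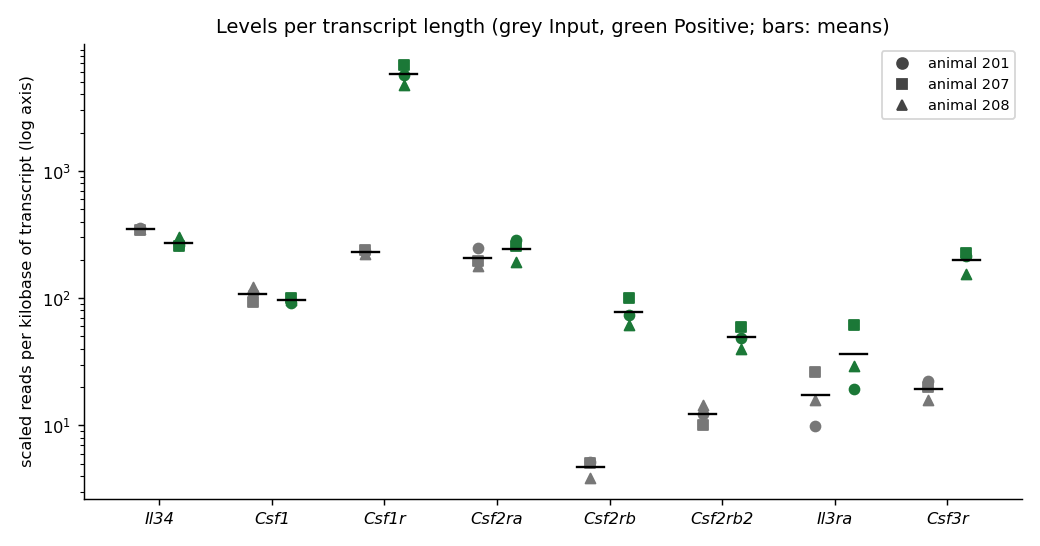
Scaled reads per kilobase of the longest coding transcript (vertical axis, log scale) for the ligands, Csf1r, the chains of the GM-CSF and IL-3 receptors and Csf3r in Input (grey) and Positive (green). Symbols are animals and bars are means over 3 libraries. Il34 is the highest in Input at 350.1 and Csf1r the highest in Positive at 5735.

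Genes with the most similar course over the 6 libraries were found by Euclidean distance between log2 profiles centred on Input, among 11496 genes. Nearest to Csf1r were the complement subunit C1qa (distance 0.17), the lysosomal protease Ctss (0.18) and C1qb (0.22). Nearest to Csf2rb were the inhibitory collagen receptor Lair1 (0.16), the prostaglandin D synthase Hpgds (0.24) and the glycosyltransferase Gcnt1 (0.24), and nearest to Csf3r were the phospholipase Plcg2 (0.22), Rgs10 (0.27) and Fgd2 (0.31). For Il34 they were the fatty acid elongase Elovl6 (0.07), Neurl1a (0.07) and Psd (0.07), for Csf1 Dnajc15 (0.10), Ctdsp2 (0.13) and Tiparp (0.14), and for Csf2ra Map4k2 (0.09), Ppwd1 (0.14) and Arhgap10 (0.15).

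Downstream of CSF1R, 25 of 26 listed signalling genes were tested. Where 24.0% of all genes tested rose and 22.0% fell, 18 of these 25 rose and 0 fell, with a median log2 fold change of 1.11. Among the 18, Dok2 passed the filter on low values only through Positive. Also at an unadjusted p under 0.05, 0 fell, and DESeq2 and limma called 0 lower as well, while without the Positive library of animal 208 the count was 2. Among the largest were the tyrosine phosphatase Ptpn6, also called SHP-1 (56.0 ± 2.10 to 1643 ± 321 scaled reads, SD, n = 3, log2 fold change 4.88) and the inositol phosphatase Inpp5d, or SHIP1 (4.52). The smallest that passed were Cbl (0.42), the ubiquitin ligase that marks activated CSF1R for degradation, the kinase Mapk3 (0.29) and Akt1 (0.22). Akt1 had an adjusted p of 0.0279 (edgeR), which was lost under total count scaling, with limma and when any of 5 of the 6 libraries was left out (0.0515 to 0.093). Src (0.02) and Fyn (-0.13) did not pass.

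Besides CSF1R, 3 genes for proteins that bind its ligands or share its signalling were read. Ptprz1, a receptor phosphatase known to bind IL-34, fell to 46.2% of Input (2775 ± 89.2 to 1283 ± 251 scaled reads, SD, n = 3, log2 fold change -1.11, adjusted p = 6.7e-06 by edgeR). Sdc1, a proteoglycan known to bind IL-34, had 29.2 ± 7.72 and 34.6 ± 5.99 scaled reads and did not pass (adjusted p = 0.514). Trem2, a lipid receptor of microglia, rose with a log2 fold change of 4.31.

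The list of 18 cytokine receptor, JAK and STAT genes serves receptors such as those for GM-CSF and G-CSF. Of these 18, 15 rose and 2 fell, where 24.0% of all genes tested rose and 22.0% fell. Among the 15, Il2rg passed the filter on low values only through Positive. The median log2 fold change of the list was 0.91. The largest were the kinase Fes (4.01) and the receptor chains Il4ra (3.12) and Il13ra1 (2.89), and Tyk2 (0.61) was the smallest that rose. Of the cytokine-induced inhibitors on the list, Socs2 (-0.49) and Cish (-0.92) fell and Socs3 (0.85) rose, the last named after its value was seen. Jak2 (0.23), the kinase bound to the GM-CSF receptor beta chain, did not pass (adjusted p = 0.101).

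Of 12 transcription factors of the myeloid lineage and of Csf1r control, 9 rose and 1 fell, with a median log2 fold change of 0.52. The shares over all genes tested were 24.0% higher and 22.0% lower. Spi1, which encodes PU.1, rose from 62.1 ± 6.21 to 1714 ± 315 scaled reads (SD, n = 3, log2 fold change 4.79), next to Runx1 (4.41) and Irf8 (4.11), while Ets2 (0.39) and Jun (0.35) rose least. Runx1 passed the filter on low values only through Positive. Runx2 fell (-0.64), which was lost without the Input library of animal 207 (-0.47, adjusted p = 0.0745). Mitf (0.31) and Egr2 (-0.21) did not pass.

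Of 10 genes for class III receptor tyrosine kinases, the relatives of CSF1R, and their ligands, 2 rose and 4 fell, with a median log2 fold change of -0.39. Over all genes tested, 24.0% rose and 22.0% fell. The growth factor genes Pdgfb (0.99) and Kitl (0.53) rose, and Pdgfa (-0.75), Pdgfc (-0.95), the precursor cell marker Pdgfra (-1.67) and Flt3 (-0.50) fell. The call of Flt3 was lost without the Input library of animal 201 (adjusted p = 0.0676) or 208 (0.0716) or the Positive library of animal 207 (0.0510). Pdgfrb (-0.29), Pdgfd (-0.35) and Kit (-0.20) did not pass, though Kit did with the animal as a block (-0.20, adjusted p = 0.0446 by edgeR) and under total count scaling (-0.27, adjusted p = 0.0276). Csf1r was thus the only one of the class III receptor genes Csf1r, Kit, Flt3, Pdgfra and Pdgfrb that rose.

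**Figure D4:**
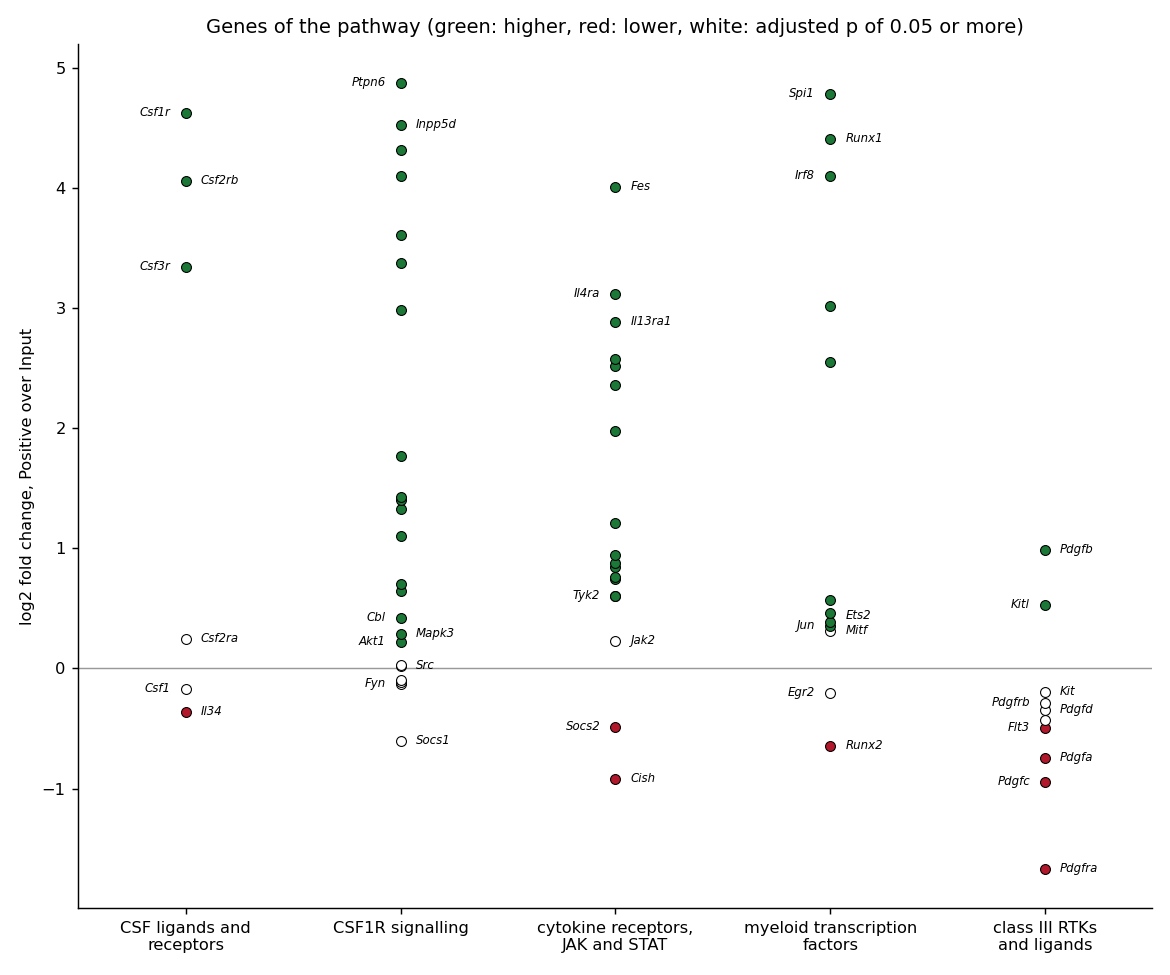
Log2 fold change of Positive over Input (vertical axis) for tested genes of the CSF family and of 4 related lists (columns), with selected genes labelled. Some genes of the signalling list are not shown. Green points rose, red points fell and white points had an adjusted p of 0.05 or more. The signalling column runs from Ptpn6 at 4.88 to Socs1 at -0.60, and no gene of the class III column exceeds Pdgfb at 0.99.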

How the data were processed

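RNA of the Input and Positive fractions was sequenced from 3 mice as directional, poly(A)-selected read pairs. Per the methods of the study, the authors removed adapters, cut bases from both read ends, and aligned to mm10 in Strand NGS with strand used. They kept genes reaching 20 raw reads throughout at least 1 fraction. The deposited raw columns hold expected counts, which need not be whole, and the deposited normalized columns hold log2 values after DESeq scaling. How mates of a pair were counted was not settled.

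Expected counts were rounded and tested by edgeR 4.0.16 (R 4.3.3, quasi-likelihood F test), unpaired, with median-of-ratios scaling. A gene was kept where all libraries of a fraction exceeded 20 scaled reads, which removed 44 and left 15344. P-values were adjusted over these by Benjamini-Hochberg, with a threshold of 0.05. The method was tested on simulated data with independent libraries and far fewer changed genes than were called here. Ratios per animal used a pseudocount of 1. Lengths came from GENCODE for GRCm38. Alternatives used DESeq2 1.42.0, limma 3.58.1 on the log2 values, other scalings and filters, a block and left-out libraries. The members and lists were chosen with earlier results of these data known. Named were all members and, per related list, the 3 largest and 3 smallest calls and up to 3 of the most abundant genes without a call. Some genes this rule took are left out of the text. The animal numbers of the labels pair the fractions. Deviations from the fraction means correlated at 0.274, 0.0845 and 0.151 within animals 201, 207 and 208, and at -0.180 to 0.0498 between animals. P-values of the main fit rest on the spread between the 3 libraries within each fraction and do not use the pairing by animal. Reads carried no molecular identifiers.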

Additional observations from a re-analysis of the deposited data

How the results depend on the processing

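The calls of Csf1r, Csf2rb, Csf3r and Il34 and the direction of all 6 CSF genes held under each alternative run. Leaving out 1 library at a time gave log2 fold changes of 4.48 to 4.75 for Csf1r, 3.85 to 4.21 for Csf2rb, 3.22 to 3.50 for Csf3r, -0.44 to -0.32 for Il34, -0.27 to -0.08 for Csf1 and 0.12 to 0.39 for Csf2ra, with 3 to 4 members higher and 1 lower. Csf2ra passed the test only without the Positive library of animal 208 (0.39). Per-animal means moved by less than the spread between animals with a pseudocount of 0.1 or 5. A replicate block for the animal, that is, pairing, changed no call among the members (Csf2ra 0.24, Il34 -0.37) and added that of Kit (-0.20).

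Of Csf2rb2 and Il3ra, 1 in place of 2 rose under total count scaling, when genes averaging under 100 scaled reads were left out and with limma, and 1 to 2 when a library was left out. Genes of CSF1R signalling that fell numbered 1 under total count scaling and 0 to 2 when a library was left out. Cytokine receptor, JAK and STAT genes that fell numbered 1 when genes averaging under 100 scaled reads were left out. Transcription factors that fell numbered 0 to 1 when a library was left out. The sign of Src, which passed no test, turned under total count scaling (-0.054), when genes averaging under 100 scaled reads were left out (-0.0049) and without the Positive library of animal 208 (-0.034, in a leave-one-out range up to 0.0525), and that of Egr2 without the Input library of animal 208 (0.19). Without the Positive library of animal 208, Fyn (-0.19), Jak2 (0.31), Mitf (0.38) and Kit (-0.28) passed the test, and without that of animal 201 Pdgfrb (-0.53) did. The cause was not tested. Under total count scaling, Fyn (-0.21) and Kit (-0.27) passed too. Few reads lay behind Csf2rb and Il3ra in Input, at 18.8 to 60.8 scaled reads.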

Other observations

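Il3ra, Csf2ra and Csf1r each kept 1 order of the animals in both fractions. Il3ra was lowest in animal 201 (22.8 scaled reads in Input and 45.0 in Positive), followed by animal 208 (36.3 and 67.3) and animal 207 (60.8 and 142). The log2 Positive over Input of Il3ra was nevertheless 0.95, 0.87 and 1.21 in these animals, with an SD of 0.18. Csf2ra was highest in animal 201 (457 and 529), then animal 207 (361 and 476), then animal 208 (329 and 356). Csf1r was highest in animal 207 (1123 and 32217), then animal 201 (1107 and 26560.5), then animal 208 (1043 and 22105). With 3 animals these orders are a description with no test. The difference in log2 Positive over Input between Csf1r and Csf1 varied least among the member pairs compared, with an SD of 0.05 over the 3 animals, against 0.32 between Csf1r and Il34. Not all member pairs were compared. The difference between Csf1 and the microglia marker median also had an SD of 0.05, so the small spread is not particular to this pair.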
